A study of Mus musculus with 2 samples.

Results

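The genes described here are 10 components through which a cell receives and transmits a Hedgehog signal: the receptors and coreceptors Ptch1, Smo, Boc, Cdon, Gas1 and Hhip, the inhibitor Sufu, and the transcription factors Gli1, Gli2 and Gli3. They were taken by gene symbol from the 32285 genes of the feature table, and 10 of 10 were found. Cells came from healing calvarial bone of C57BL/6 mice, 7 days after a 1.8 mm frontal bone defect was made in males 2 months old, and a segment of about 3 mm around the defect was digested and sequenced with 10x Genomics chemistry. The control library came from mice given 100 µL of 10% DMSO intraperitoneally. The GA library came from mice given gambogic amide, a small molecule agonist of the nerve growth factor receptor TrkA, at 1.2 mg/kg in 10% DMSO by the labels, in the same volume, starting 24 h before injury and repeated daily for 1 week. The study's methods state a higher dose and a longer course. Each library pooled 5 mice, and there was 1 library per group. Differences between the libraries therefore have no replicate check, and no test or p-value is given. Intervals are 95% intervals for counting error only.

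Hedgehog ligands bind Patched receptors on the cell surface. Without ligand, Patched keeps Smoothened inactive, and Gli2 and Gli3 are partly processed into repressors; with ligand, Smoothened moves into the primary cilium and the Gli proteins act as activators. In the cranial skeleton the pathway is known for its part in suture progenitors, of which Gli1 is a widely used marker, and in osteoblast differentiation. Ptch1, Hhip and Gli1 are themselves transcribed in response to the signal in many tissues, whereas Gas1, Cdon and Boc are often repressed by it.

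Promoters are shown for Ptch1 and Gli2, the pair of members with a RefSeq promoter entry whose levels were most alike across mesenchymal clusters (Pearson r = 0.725 over 23 cluster and library points, a description only). Both windows are 300 bases of GRCm38.p6, read 5′ to 3′ on the minus strand. The Ptch1 window, chr13:63565686-63565985, lies at the start that RefSeq lists, inside the gene span used for counting (chromosome 13, 63508328 to 63573598, minus strand). The Gli2 window, chr1:119053570-119053869, spans the first bases of the Gli2 gene (chromosome 1, 118834132 to 119053619, minus strand).
Ptch1: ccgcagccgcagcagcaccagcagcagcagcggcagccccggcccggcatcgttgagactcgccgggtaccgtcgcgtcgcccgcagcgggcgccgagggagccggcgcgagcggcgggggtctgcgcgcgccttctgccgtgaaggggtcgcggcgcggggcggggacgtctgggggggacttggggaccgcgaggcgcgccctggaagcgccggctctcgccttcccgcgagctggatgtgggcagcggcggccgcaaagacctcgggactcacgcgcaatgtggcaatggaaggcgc
Gli2: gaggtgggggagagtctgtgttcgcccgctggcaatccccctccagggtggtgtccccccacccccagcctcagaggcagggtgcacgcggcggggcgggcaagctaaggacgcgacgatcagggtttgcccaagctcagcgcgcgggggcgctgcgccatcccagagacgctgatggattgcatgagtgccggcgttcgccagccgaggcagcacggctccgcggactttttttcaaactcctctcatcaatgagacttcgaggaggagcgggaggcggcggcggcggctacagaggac
The GLI consensus GACCACCCA and its core CCACCCA, which is contained in the consensus, were searched on both strands. Neither occurred in these windows, so no base is in capitals, nor in the windows of Smo, Cdon, Gas1, Sufu, Hhip and Gli3. Of all 32851 RefSeq windows, 83 (0.253%) held the consensus and 3056 (9.30%) the core. No match says only that these letters are not in this window.

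The deposited matrices held 182949385 unique molecular identifiers (UMIs, each standing for 1 captured transcript) in 9322 GA barcodes and 214993030 in 8718 control barcodes, of which 8380 and 7553 cells were kept, with median depths of 10968.5 and 16299 UMIs. Of all barcodes, 23 sequences occurred in both libraries. Cells were grouped without the Hedgehog genes. The mesenchymal lineage held 865 GA cells (10.3%) and 1727 control cells (22.9%), while neutrophil-like cells made up 52.6% and 27.6%. The lineage carried its defining markers: Prrx1 was at 592 UMIs per 1000000 UMIs (CPM) in GA and 557 in control, against 4.04 and 14.96 in all other cells. Pdgfra was at 130 and 133 CPM, against 0.784 and 2.95.

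RNA of most members was concentrated in the mesenchymal lineage. For 8 of the 10 members, at least 85% of all UMIs of both libraries lay in lineage cells, against 11.8% of the 18381 genes with at least 50 UMIs. Lineage cells held 41.7% of all UMIs (29.3% in GA and 52.5% in control), and the median gene had 40.7% of its UMIs there. Gas1, a membrane-anchored coreceptor, had 98.4% of its 25386 UMIs there, Gli3 96.8% of 14044, and Boc 95.9% of 4557. Gli2 followed with 95.4% of 1657, Gli1 with 92.4% of 225, Smo with 92.0% of 7019, Hhip with 90.7% of 172 and Cdon with 90.1% of 5529. Ptch1, the receptor, and Sufu, which holds Gli proteins inactive in the cytoplasm, were the exceptions. Of their 2202 and 5448 UMIs, 58.3% and 51.4% lay in the lineage, nearer to the share of all UMIs. Neutrophil-like cells give the level that free RNA can leave in cells lacking a gene. There, over both libraries, Gli1 stood at 0.0172 CPM, Ptch1 at 0.154, Gli3 at 0.240 and Gas1 at 0.669, but Sufu at 3.96. The share of lineage cells with a Gli1 UMI was 4.39% in GA and 6.49% in control, against 0.0227% and 0% of neutrophil-like cells, where the 0 UMIs of the 2084 control cells allow up to 0.192 CPM at a limit of 3 counts. Median depths were 50355 and 51035 UMIs in the lineage, and 7056 and 5091.5 in neutrophil-like cells. With every cell reduced to 2000 UMIs, the expected shares with a Gli1 UMI were 0.306% and 0.438% in the lineage, and 0.00168% and 0% in neutrophil-like cells.

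**Figure D1:**
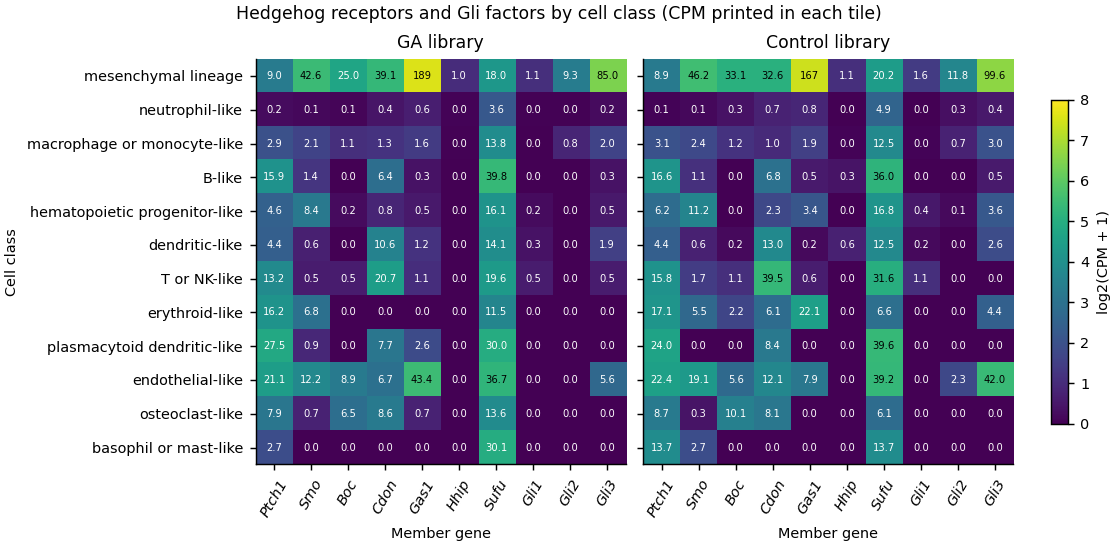
Levels of the 10 members (columns) in cell classes with at least 20 cells in each library (rows), for GA (left) and control (right); colour is log2(CPM + 1) and the number in each tile is the CPM. Gas1 and Gli3 are highest in the lineage row, with endothelial-like and control erythroid-like tiles that rest on few cells, whereas Ptch1 and Sufu extend over B-like, T or NK-like, endothelial-like and plasmacytoid dendritic-like rows.

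Ptch1 was not restricted to stromal cells. In B-like cells it was at 15.9 CPM in GA (interval 13.0 to 19.2) and 16.6 in control (13.6 to 20.2). Plasmacytoid dendritic-like cells had 27.5 and 24.0 CPM, endothelial-like cells 21.1 and 22.4, erythroid-like cells 16.2 and 17.1, and T or NK-like cells 13.2 and 15.8. All were above the lineage mean of 9.02 and 8.92 CPM, although the interval of the GA T or NK-like cells, 8.57 to 19.6, included it, while macrophage or monocyte-like cells were lower, at 2.92 and 3.07. In B-like cells the 104 and 102 Ptch1 UMIs lay in 76 and 74 cells, with at most 4 and 5 in 1 cell. Of the Gli factors, by contrast, B-like cells held 0 UMIs of Gli1 and of Gli2 in both libraries, which allows up to 0.236 CPM of each over both at a limit of 3 counts.

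Other members were also found outside the lineage. Cdon, a coreceptor of the immunoglobulin superfamily, was at 20.7 CPM in GA and 39.5 in control T or NK-like cells. The control value was above the lineage mean of 32.6 CPM, and the GA value below that of 39.1. In dendritic-like cells Cdon was at 10.6 and 13.0 CPM. Smo was at 8.41 and 11.2 CPM in hematopoietic progenitor-like cells, in 103 of 465 and 46 of 308 cells. Boc was at 6.46 and 10.1 CPM in osteoclast-like cells. Pericyte-like cells, of which there were 5 and 26, had Gli3 at 111 and 81.5 CPM and Gas1 at 222 and 79.9 CPM, the GA values from 10 and 20 UMIs. Some values rested on few cells. Gas1 in endothelial-like cells, 43.4 CPM in GA against 7.94 in control, came from 39 UMIs in 3 GA cells, 20 of them in 1 cell. Gas1 in control erythroid-like cells, 22.1 CPM, had 30 of its 40 UMIs in 1 cell, and Gli3 in control endothelial-like cells had 29 of its 90 UMIs in 1 cell.

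Within the lineage, the receptor Ptch1 was high in osteoblast-like and fibroblastic-like cells of both libraries. Clusters 13 (1 GA and 26 control cells) and 14 (18 and 3 cells) are left out of the orders that follow. It was at 22.8 CPM in GA and 19.1 in control osteoblast-like cells (Bglap, Ibsp and Dmp1 leading), and at 26.5 and 13.7 in fibroblastic-like cells, which were named from markers such as Eln, Mgp and Foxc2. Osteogenic-like cells were clusters 4 and 10, named from a list with Alpl, Mmp13 and Sp7 among others. Alpl and Mmp13 were among the leading genes of cluster 4 and not of cluster 10. The latter scored 1.55 for this name and 1.19 for multilineage, so its name is less certain. Osteogenic-like cells had Ptch1 at 21.4 and 10.8 CPM, in control below cluster 3 at 11.6 CPM. Multilineage-like cells had 17.9 and 6.88 CPM, from 15 and 12 UMIs. In GA, 1 cell held 23 of the 43 fibroblastic-like UMIs and another 34 of the 104 osteogenic-like UMIs. Without the top cell of each population these GA levels were 12.6 and 14.6 CPM, and that of osteoblast-like cells was 20.2. The lowest levels, 4.31 and 4.88 CPM, were in Cd34-high cells, and intervals of the osteoblast-like and Cd34-high cells did not overlap in either library. Smo, the transducer that Ptch1 holds in check, varied less. It ranged from 29.2 and 30.3 CPM in osteoblast-like cells to 75.2 and 64.2 CPM in fibroblastic-like cells, and was between 38.0 and 60.9 CPM in Cd34-high, dividing, multilineage-like and osteogenic-like cells and clusters 3 and 5.

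The 3 coreceptors had different domains. Boc was high in fibroblastic-like cells, at 148 CPM in GA and 94.2 in control, followed by osteoblast-like cells at 61.6 and 61.4, with 13.4 and 13.8 in Cd34-high cells. Cdon was nearly absent from osteoblast-like cells, with 6 and 5 UMIs, or 1.93 and 1.99 CPM, against 43.0 and 37.9 CPM in Cd34-high cells and 96.2 and 46.9 in fibroblastic-like cells. In control, multilineage-like cells, at 47.0 CPM, matched the fibroblastic-like level. Gas1 was also lowest in osteoblast-like cells, at 37.5 and 50.2 CPM, with 61.8 and 73.6 in osteogenic-like cells, 194 and 172 in Cd34-high cells, and 436 and 255 in fibroblastic-like cells. Osteoblast-like cells thus held Boc with little Cdon. Cd34-high cells held more Cdon and Gas1 than Boc, although 40.8% of them in GA and 47.7% in control had a Boc UMI. Dividing cells had still lower Boc, at 11.2 and 8.88 CPM.

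Hhip, a decoy that binds ligand without signalling, was mainly in fibroblastic-like cells. They held 83.7% in GA and 80.4% in control of its lineage UMIs and were 5.32% and 19.3% of lineage cells, while osteogenic-like cells held 8.16% and 14.02%. All 41 of the GA UMIs and 83 of the 86 control UMIs of that population were in cluster 11, a group of 19 and 39 cells led by Ptgds, Slc47a1 and Chrm3, where Hhip stood at 77.6 and 60.4 CPM. Cluster 2, the other fibroblastic-like cluster, with 27 and 294 cells, had 0 and 3 Hhip UMIs. Few cells carried the UMIs: 7 of 46 fibroblastic-like cells in GA, with 23 UMIs in 1 cell, and 18 cells in control, with 30 in 1 cell. Sufu was spread more evenly, with 10.2 and 12.8 CPM in cluster 5, 10.9 and 12.8 in osteoblast-like cells, and 34.5 and 27.4 in fibroblastic-like cells.

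The Gli factors separated from each other. Gli1, the factor that mainly reports an active pathway, was at 10.5 CPM in GA (17 UMIs) and 4.51 in control (67 UMIs) fibroblastic-like cells, and at 2.06 (10 UMIs) and 3.496 (47 UMIs) in osteogenic-like cells. In Cd34-high cells, with 363 and 497 cells, it had 2 and 6 UMIs, or 0.0957 and 0.198 CPM. Cluster 5, unnamed but with Cd34-high as its best-scoring name, had 11 and 6 Gli1 UMIs, or 2.24 and 0.663 CPM. Gli2, the main activator, was at 28.4 and 24.2 CPM in fibroblastic-like cells, 19.9 and 29.5 in osteoblast-like cells and 14.8 and 17.8 in osteogenic-like cells, against 5.36 and 4.48 in Cd34-high cells. Gli3, the main repressor when processed, followed another order. It was lowest in osteoblast-like cells, at 36.6 and 43.1 CPM, and highest in dividing cells, at 112 and 127. Osteogenic-like cells, at 111 and 109 CPM, and cluster 3, at 99.2 and 111, came next. In GA the interval of dividing cells, 100 to 124, overlapped that of osteogenic-like cells, and in control it did not. Over the 23 cluster and library points, Gli2 went with Boc (r = 0.811), Ptch1 (0.725) and Gli1 (0.675), and Gli3 ran against Boc (-0.543) and Gli2 (-0.357). These points, which include control cluster 13, share libraries and depth, so the values are descriptions. Foxd1 is a marker of the fibroblastic-like name and also a gene of the Hedgehog target list below.

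**Figure D2:**
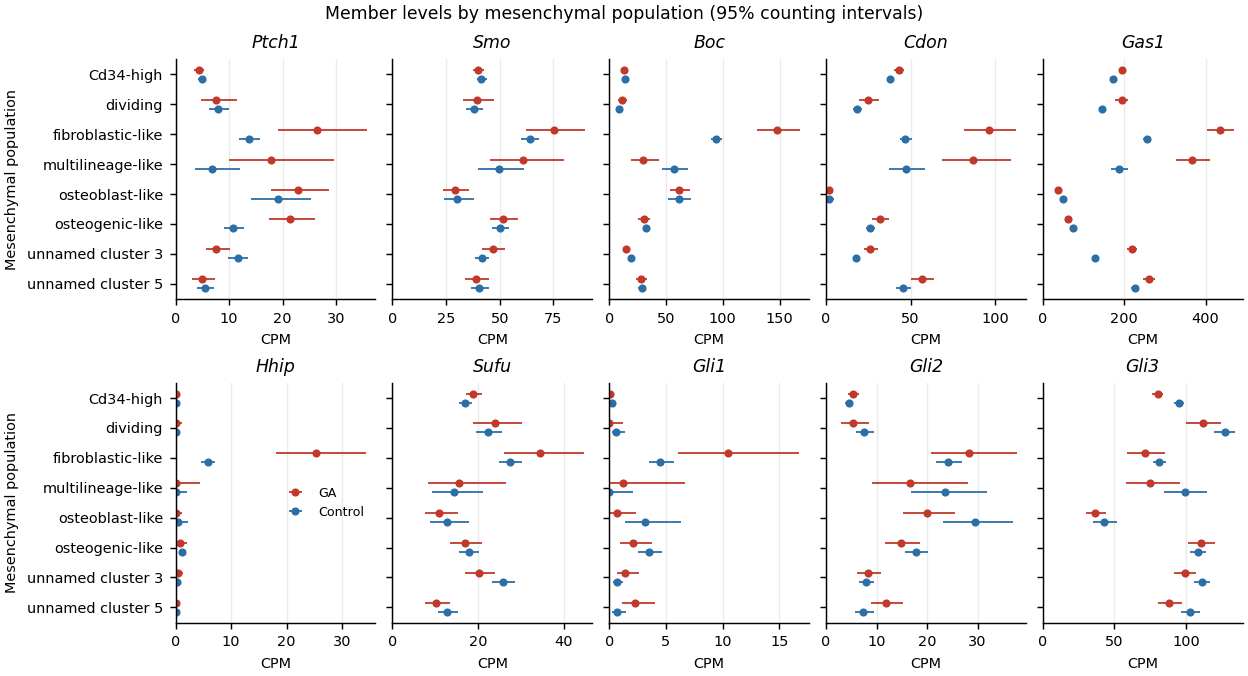
CPM of each member (x axis, one panel per gene, own scale from 0) in the mesenchymal populations with at least 15 cells in each library (y axis), GA in red and control in blue; points are summed UMIs scaled to CPM and bars 95% counting intervals. Fibroblastic-like cells lead for Boc, Gas1, Hhip and Gli1 in both libraries, osteoblast-like cells are near 0 for Cdon, and Gli3 is lowest in osteoblast-like cells.

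Most Ptch1 UMIs lay in cells with few of them, and a small number of cells had many. In the GA library, 3 lineage cells had 10 or more Ptch1 UMIs and held 67 of 424 UMIs (15.8%), while 5 control cells held 60 of 860 (6.98%). The highest, an osteogenic-like GA cell with 45874 UMIs, had 34 Ptch1 UMIs, 14 of Gli3, 2 of Gli2 and 0 of Gli1. The next, a GA cell of cluster 11, had 23 Ptch1 UMIs, 19 of Gas1, 6 of Cdon and 0 of Gli1. The control osteoblast-like cell with 10 Ptch1 UMIs had 4 of Gli1, 25 of Boc and 765 of Bglap. All 4 lineage cells with 10 or more Hhip UMIs, 1 in GA and 3 in control, were in cluster 11.

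The comparison of GA with control describes the levels of these genes in the cells of each library. With 1 library per group, treatment and library cannot be told apart. In the lineage as a whole, no member differed by 1.5-fold. Cdon and Gas1 were higher in GA, and Gli1, Boc, Gli2, Gli3, Sufu and Smo lower, with counting intervals that excluded 0, and Ptch1 was nearly equal. Of 15643 genes with at least 50 UMIs over both libraries, 14.5% were past 1.5-fold in either direction, against 0 of 10 members. The median log2 ratio of the members was -0.14, against -0.02 for all genes tested, 80% of which lay between -0.48 and 0.41.

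By role, Ptch1 had 9.02 CPM in GA and 8.92 in control, a log2 ratio of 0.02 (-0.15 to 0.19). Smo had 42.6 and 46.2 CPM, a log2 ratio of -0.12 (-0.19 to -0.04). Among coreceptors, Boc had 24.98 and 33.1 CPM (-0.41, -0.51 to -0.31), Cdon 39.1 and 32.6 (0.26, 0.18 to 0.35) and Gas1 189 and 167 (0.18, 0.15 to 0.22). Boc was thus lower while Cdon and Gas1 were higher. Hhip had 1.04 and 1.11 CPM from 49 and 107 UMIs (-0.09, -0.61 to 0.41), and Sufu 18.0 and 20.2 CPM (-0.17, -0.29 to -0.05). Gli1 had 1.11 and 1.62 CPM from 52 and 156 UMIs (-0.55, -1.03 to -0.09), the lowest ratio of the members, at the 8.30th percentile of all genes. Gli2 had 9.32 and 11.8 CPM (-0.35, -0.51 to -0.19) and Gli3 84.99 and 99.6 (-0.23, -0.28 to -0.18).

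The make-up of the lineage also differed between the libraries, and its part in these values was not tested. Fibroblastic-like cells, which were high in Boc and Gli1, were 5.32% of lineage cells in GA and 19.3% in control, Cd34-high cells 42.0% and 28.8%, and osteoblast-like cells 8.79% and 3.42%. Equal weight was then given to the 10 clusters with at least 20 cells in both libraries. The log2 ratio of Boc was then 0.0037 in place of -0.41, and that of Gli1 0.18 in place of -0.55. Ptch1 was at 0.20, while Gli2 stayed at -0.17 and Cdon at 0.20. Clusters 11 to 14 were left out of this, so the weighting and the removal of their cells cannot be told apart. All 9 neutrophil markers were also present in the lineage, summing to 1950 CPM in GA and 262 in control, with 0 markers at 0, and their part in these values was not tested. Without cluster 14, which neutrophil genes led, Boc was at -0.39, Gli1 at -0.51 and Cdon at 0.28. In all kept cells together, where the lineage share counts too, 7 of 10 members were lower in GA by more than 1.5-fold, against 21.2% of 18381 genes, with Gli1 at -1.30, Boc at -1.23 and Gli2 at -1.17. Lineage cells held 29.3% of all UMIs in GA and 52.5% in control. A gene confined to them would thus be lower in GA here even if unchanged within them. The 21.2% covers genes of all cell classes and is not matched for this.

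**Figure D3:**
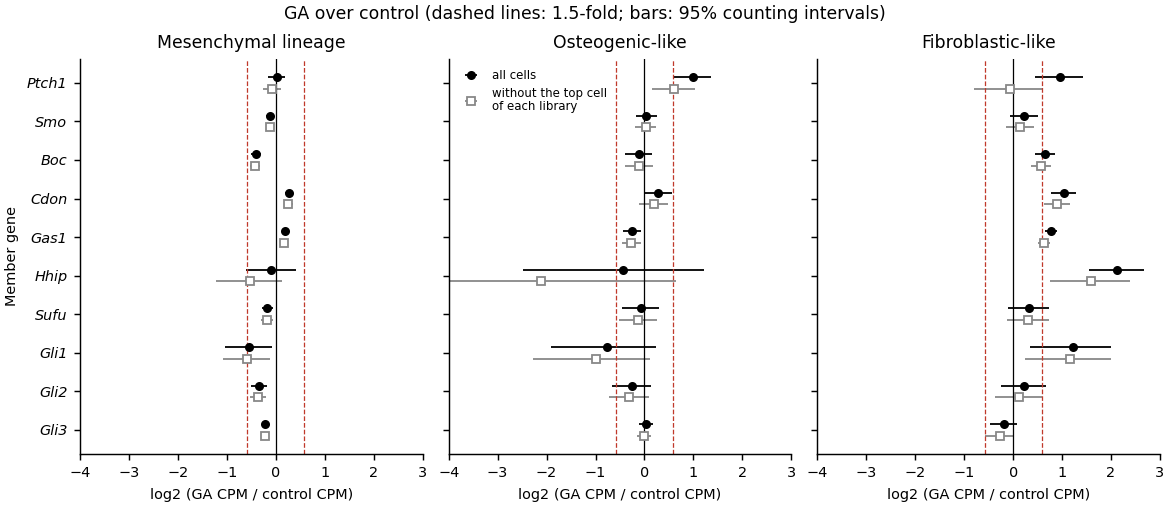
Log2 ratio of GA to control CPM (x axis) for each member (y axis) in the whole lineage (left), osteogenic-like cells (middle) and fibroblastic-like cells (right). Black circles use all cells and open squares leave out the cell with most UMIs of that member in each library; bars are 95% counting intervals (that of osteogenic-like Hhip without the top cells runs past the left edge) and dashed lines mark 1.5-fold. In the lineage all circles lie within 1.5-fold, and the fibroblastic-like Ptch1 value moves from 0.96 to -0.057 without the top cells.

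Within populations the ratios varied more. In osteogenic-like cells Ptch1 was at 21.4 CPM in GA and 10.8 in control, a log2 ratio of 0.99 (0.61 to 1.36), from 104 UMIs in 31 of 103 cells and 145 UMIs in 67 of 284 cells. In this population 6.13% of genes were higher by 1.5-fold. The cell with 34 UMIs made up much of the GA total. Without the top cell of each library the log2 ratio was 0.60 (0.16 to 1.03). With the top cells kept, cluster 4, which held the cell with 34 UMIs, gave 1.02. Cluster 10, the other osteogenic-like cluster, gave 1.31 (0.0014 to 2.63) from 12 GA and 11 control UMIs. These are fewer UMIs than the minimum used for ratios, so the value of cluster 10 is a description only. The share of osteogenic-like cells with a Ptch1 UMI was 30.1% in GA (21.5 to 39.9) and 23.6% in control (18.8 to 29.0), with overlapping intervals. Gli1 was not higher in the same cells, with 10 and 47 UMIs and a log2 ratio of -0.76 (-1.91 to 0.24), nor did Boc (-0.11) or Gli2 (-0.26) have an interval above 0. Neutrophil markers summed to 481 and 140 CPM in these cells, and their part in the result was not tested.

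In fibroblastic-like cells 6 of 10 members were past 1.5-fold, all higher in GA, against 12.0% of 11398 genes higher by that much. Hhip was at 25.3 against 5.79 CPM (log2 ratio 2.13, 1.55 to 2.68), Gli1 at 10.5 against 4.51 (1.22, 0.35 to 2.00) and Cdon at 96.2 against 46.9 (1.03, 0.77 to 1.29). Ptch1 had 0.96 (0.45 to 1.44), Gas1 0.77 and Boc 0.65. The GA cells were 27 of cluster 2 and 19 of cluster 11, and the control cells 294 and 39. Within cluster 2 alone the ratios were -0.21 for Ptch1, -0.31 for Cdon, -0.21 for Gas1 and -0.05 for Boc, with Gli1 at 1.39 from 10 and 47 UMIs. Within cluster 11 they were 0.86, 0.74, 1.03 and 0.93, with Hhip at 0.36 (-0.21 to 0.92) and Gli1 at -0.13 from 7 and 20 UMIs. For Ptch1, 23 of 43 GA UMIs were in 1 cell of cluster 11, so the 0.86 there rests largely on that cell. Without the top cells of the whole fibroblastic-like population the Ptch1 ratio was -0.057 (-0.80 to 0.61). Neutrophil markers summed to 570 and 147 CPM, and their part was not tested.

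Elsewhere single members differed. Neutrophil markers summed to 549 CPM in GA and 199 in control in cluster 3, 502 and 149 in cluster 5, 3291 and 871 in osteoblast-like cells, and 492 and 313 in multilineage-like cells, where 2 of the 9 were at 0 in GA, and their part in the values below was not tested. In cluster 3, unnamed and led by Actg2, Tagln and Cnn1, Ptch1 was at 7.62 CPM in GA and 11.6 in control (log2 ratio -0.61, -1.10 to -0.14), and Gas1 at 219 and 128 (0.77, 0.67 to 0.87). There 7.13% of genes were higher and 6.90% lower by 1.5-fold. In cluster 5, led by Kcnj8 and Egfl6, Gli2 was at 11.8 and 7.40 CPM (0.68, 0.14 to 1.21), where 6.70% of genes were as much higher. In osteoblast-like cells Gli2 was at 19.9 and 29.5 CPM (-0.57, -1.08 to -0.06). This was within 1.5-fold, a size that 14.3% of genes passed there. Gas1 was also lower in these cells within 1.5-fold (-0.42, -0.80 to -0.05), while Ptch1 (0.25), Boc (0.01) and Smo (-0.05) had intervals that included 0. In Cd34-high cells, the largest population, 0 of the 8 members with enough UMIs were past 1.5-fold, against 10.7% of genes. In the 18 and 36 multilineage-like cells, Gas1 was at 367 and 187 CPM (0.97), Cdon at 87.2 and 47.0 (0.89) and Boc at 29.8 and 56.7 (-0.93), where 22.7% of genes were past 1.5-fold.

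The share of lineage cells with a UMI was compared at a fixed depth, with each cell of at least 20000 UMIs reduced to that number, which left 820 GA and 1684 control cells and left out 45 and 43. The expected share was 77.2% in GA and 78.0% in control for Gas1, 71.6% and 73.9% for Gli3 and 55.7% and 59.0% for Smo. It was 44.3% and 41.0% for Cdon, 34.1% and 40.2% for Boc, 28.4% and 29.8% for Sufu and 15.1% and 19.0% for Gli2. Ptch1 was in 12.5% (10.3 to 14.9) and 13.5% (11.9 to 15.2), Gli1 in 2.65% (1.66 to 3.99) and 3.31% (2.51 to 4.28), and Hhip in 1.06% and 1.22%. The intervals of GA and control overlapped for 9 of the 10 members, and those of Boc, 30.9 to 37.5 and 37.8 to 42.6, did not. Overlap was not counted over all genes, so this count is a description only. At full depth Ptch1 was in 24.3% and 26.2% of lineage cells and Boc in 54.8% and 62.8%.

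Gli1 RNA was found with other members of the pathway. A Gli1 UMI was in 38 GA and 112 control lineage cells, 13 and 50 of them fibroblastic-like and 8 and 28 osteogenic-like. That is 28.3% and 15.02% of fibroblastic-like cells, 7.77% and 9.86% of osteogenic-like cells, and 0.551% and 0.805% of Cd34-high cells. Cells with Gli1 were shallower, with medians of 37060.5 and 45155.5 UMIs against 51048 and 51252 in the others. Ptch1 was at 18.2 CPM in GA cells with Gli1 and 8.68 in those without (log2 ratio 1.07, 0.49 to 1.59), and at 23.1 and 8.03 CPM in control (1.52, 1.24 to 1.79). Boc was higher by 1.69 and 1.25, Gli2 by 1.38 and 0.96, and Hhip by 2.58 and 3.76, the last from 9 and 49 UMIs. Gli3 was at -0.04 and -0.11, and both intervals included 0. Of all genes tested, 14.6% in GA and 15.7% in control were higher by 1.5-fold in these cells. Among target genes, Foxd1 was higher by 2.94 and 2.31 and Bcl2 by 1.32 and 1.33, and Osr2 was at -0.46 and -1.55. Fibroblastic-like cells were 5.32% of lineage cells in GA and 19.3% in control. They were high in Boc and Hhip, and Foxd1 is a marker of their name. The comparison was made over the whole lineage and not within populations, so differences between populations enter all these ratios. With counts reduced to 20000 UMIs, a Gli1 UMI was expected in only 21.7 GA cells. Ptch1 kept its order, in 27.6% of GA and 31.9% of control cells with Gli1, against 12.1% and 12.8% of the rest. Gli3 was in 60.6% and 68.5%, against 71.9% and 74.1%. These shares are given without intervals and are descriptions only.

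**Figure D4:**
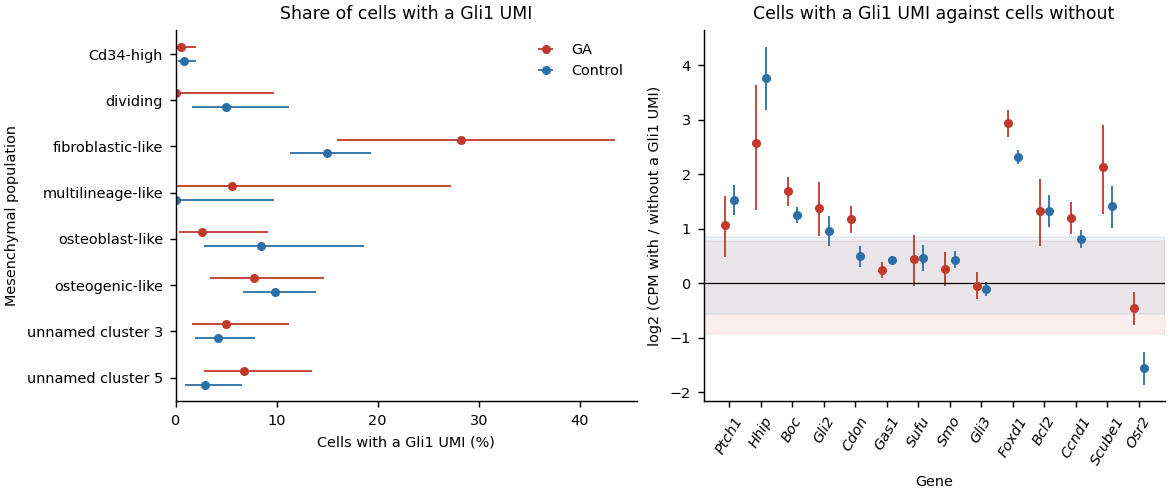
Left, share of cells with a Gli1 UMI (x axis, percent) by mesenchymal population, with exact binomial 95% intervals. Right, log2 ratio of CPM in lineage cells with a Gli1 UMI to those without (y axis) for members and target genes, with 95% counting intervals; shaded bands give the 10th to 90th percentile of all genes tested. GA is red and control blue. Hhip, Foxd1, Boc and Ptch1 lie above the bands in both libraries, and Gli3 lies at -0.04 and -0.11.

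Ligand RNA was scarce in these cells of the bone segment. The paper predicts Hedgehog ligand mainly from trigeminal ganglion neurons. It also reports SHH protein staining in sections of that ganglion, higher after injury and higher still with GA. Within the defect it reports SHH staining that overlapped nerve fibres. The ganglion was not sampled in these libraries, so its ligand RNA was not measured here, and protein was not measured either. Shh had 0 UMIs in all 15933 cells, which allows up to 0.00871 CPM over both libraries at a limit of 3 counts. Ihh, the ligand of differentiating cartilage and bone, had 17 UMIs in 6 GA cells and 13 in 10 control cells. Of these, 14 and 11 UMIs were in the mesenchymal lineage. Of the GA UMIs, 12 were in 1 cell of cluster 5 that had 77401 UMIs and none of Col10a1, Col2a1 or Acan, which mark cartilage cells. Osteoblast-like cells had 1 Ihh UMI in GA and 3 in control. Dhh, the ligand of Schwann and endothelial cells, had 8 UMIs in 8 GA cells and 12 in 12 control cells. Of its UMIs, 5 and 7 were in the mesenchymal lineage, and 2 and 3 in endothelial-like cells.

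The other pathway lists were examined in the lineage by the same ratio. Of the genes for release of the ligand, 5 were tested: 0 were higher and 1 was lower by 1.5-fold, with a median of -0.31. Disp1, a transporter that releases lipid-bearing ligand, was highest, at 32.8 and 24.4 CPM (log2 ratio 0.43), and Scube1, of a family of secreted carriers, lowest, at 2.40 and 4.94 CPM (-1.04, -1.35 to -0.74). Of 16 genes of the cilium and signal transduction, 0 were past 1.5-fold and the median was 0.06. The kinase Ulk3 was highest (0.56), and Kif7, a ciliary kinesin, lowest (-0.18). Of 12 target genes, 11 were tested, 1 was higher and 4 were lower, with a median of -0.28. Osr2, a craniofacial transcription factor and the highest of the list, was at 77.2 and 46.5 CPM (0.73, 0.67 to 0.79). Foxd2 was at -1.25 from 28 and 137 UMIs, Prdm1 at -1.15, Foxd1 at -0.91 and Foxf2 at -0.82, and the cyclin Ccnd1 was at -0.28. For comparison, 6.76% of all genes were higher and 7.74% lower by 1.5-fold. With equal weights of clusters 1 to 10, the others left out, 1 gene of all these lists was past 1.5-fold in place of 6.

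**Figure D5:**
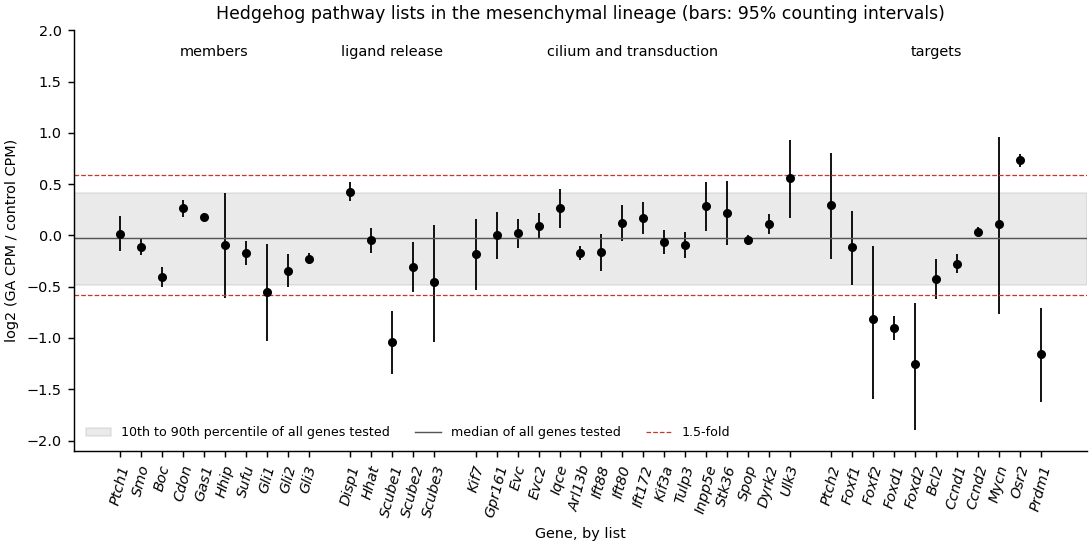
Log2 ratio of GA to control CPM in the mesenchymal lineage (y axis) for the tested genes of the members, ligand release, cilium and transduction, and target lists (x axis), with 95% counting intervals. The grey band is the 10th to 90th percentile of all genes tested (-0.48 to 0.41), and dashed lines mark 1.5-fold. All members and cilium genes lie within 1.5-fold, and 4 of the 11 target genes lie below the lower line.

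For each member, the genes most like it were found by Pearson correlation of log2(CPM + 1) over the same 23 points among 12803 genes. The points were clusters 1 to 10 in both libraries and clusters 11, 12 and 13 in control. They share depth and libraries, so these are descriptions. Gli1 was most like Nebl (0.89), Mmp28 (0.87) and Yap1 (0.87), the last a transcriptional coactivator of the Hippo pathway, and Gli2 most like Ctnnb1 (0.92), which encodes beta-catenin. Boc was most like Angpt2 (0.93), Fabp3 (0.92) and Id3 (0.91), and Ptch1 like Gm49708 (0.88), Sept4 (0.86) and Cemip (0.86). Cdon came with Prnp (0.96), Il11ra1 (0.95) and Psap (0.95), and Gas1 with Nfia (0.91). Gli3 was most like Col6a3 (0.93), a collagen chain, Hhip like Mia (0.91), Smo like Per3 (0.92) and Sufu like Ramac (0.90). Most lineage UMIs of Hhip lay in cluster 11, where Mia is a leading gene. The value for Hhip therefore rests mainly on the 1 control point of that cluster. Reads of overlapping genes on the other strand were few beside Gas1 (Gm48488, 15 lineage UMIs). Beside Gli1, Arhgap9 and Gm47200 had 116 and 27, and beside Gli3, Gm6556 had 105. Overlapping genes on the same strand were A930032L01Rik for Ptch1, Gm13717 for Smo, Mir3081 for Boc, Gm25630 for Cdon and Gm48343 for Gli3. They had no count of their own, and their part in the UMIs of these members was not tested.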

How the data were processed

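The deposited matrices hold raw UMI counts per gene and barcode, made by the authors with cellranger 7.0.1 per the file headers (the study's methods name another version, and 2 kits) against mm10. Barcodes with 500 to 140000 UMIs, 200 to 9500 genes and at most 15% mitochondrial UMIs were kept. Scrublet's automatic threshold marked 0 GA and 39 control barcodes (0.447%), so the highest scores were removed instead, 0.8% per 1000 barcodes (695 and 608). Cells were clustered with scanpy 1.11.5 (2000 variable genes by Pearson residuals, 50 components, Harmony over libraries, 15 neighbours, Leiden resolution 1, leidenalg 0.10.2), leaving 46 Hedgehog genes out of the variable genes. Mesenchymal and osteoblast clusters were clustered again. A name needed at least 3 markers, each in 10% of cells and 2-fold above the median cluster. Further conditions applied, and mesenchymal clusters 3, 5, 13 and 14 stayed unnamed. This scoring was set after the data were seen, and "like" marks names that rest on markers.

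Levels are summed UMIs per 1000000, not divided by gene length. Poisson, binomial (Clopper-Pearson) and conditional binomial intervals of 95% cover counting error only. Ratios used genes with at least 50 UMIs, and 1.5-fold was the size used for counts. The calculation was tested on simulated Poisson counts, drawn independently for each gene. Grouping of UMIs within single cells was not simulated, so the test does not cover it. Named genes were the members, the lists' extremes and the 3 genes most like each member; other genes were named after their values were seen. The members and lists were chosen with earlier results of these data known. Alternatives covered cell limits, doublets, clustering, weighting and depth. Promoters are from RefSeq, GRCm38.p6, and 8 of 10 members had an entry.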

Additional observations from a re-analysis of the deposited data

Results flagged for a closer look

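For 4 members the GA to control log2 ratio lay above 0 in one mesenchymal population and below 0 in another, with counting intervals that excluded 0 in both. The same rule was not applied to all genes, so the count of 4 has no background and is a description only. These differences between populations were not tested, since each group has 1 library. Ptch1 was at 0.99 (0.61 to 1.36) in osteogenic-like cells and -0.61 (-1.10 to -0.14) in cluster 3. Boc was at 0.65 (0.45 to 0.85) in fibroblastic-like cells and -0.38 (-0.73 to -0.04) in cluster 3. Gas1 was at 0.77 (0.67 to 0.87) in cluster 3 and -0.42 (-0.80 to -0.05) in osteoblast-like cells, so that cluster 3 had more Gas1 and less Ptch1 and Boc in GA. Gli2 was at 0.68 (0.14 to 1.21) in cluster 5 and -0.57 (-1.08 to -0.06) in osteoblast-like cells.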

How the results depend on the processing

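No paired analysis was possible because each group has 1 library. In the lineage, over 16 alternatives, Cdon (0.20 to 0.36) and Gas1 (0.11 to 0.31) stayed above 0 and Gli2 (-0.46 to -0.17), Gli3 (-0.23 to -0.13), Smo and Sufu below 0. Gli1 and Boc were above 0 only with equal cluster weights, which left out clusters 11 to 14, at 0.18 and 0.0037. That weighting left 1 gene of the Hedgehog lists past 1.5-fold in place of 6. Over 9 alternatives, 8 members kept at least 85% of their UMIs in the lineage. The following 2 alternatives were chosen or applied to populations after seeing the data. Without the top cell of each library, 1 member in the lineage was past 1.5-fold (Gli1, -0.59), Ptch1 was at 0.60 in osteogenic-like cells, and Ptch1 reversed to -0.057 in fibroblastic-like cells. With no doublets removed, Ptch1 was at 0.59 and 0.43 in those populations, and 3 members in place of 6 were past 1.5-fold in fibroblastic-like cells; the cause was not tested. Shares of cells with a UMI scale with depth by construction: at 10000 UMIs Ptch1 was in 7.20% of GA and 8.01% of control cells and Gli1 in 1.44% and 1.97%, and unthinned in 24.3% and 26.2%, and 4.39% and 6.49%. With at most 10% mitochondrial UMIs no cluster was named osteogenic-like. Members with few UMIs, Gli1 and Hhip, are limited by depth.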
